A study of Rattus norvegicus with 18 samples.

Results

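Bdnf, Ntf3, Ntrk2, Ntrk3 and Ngfr, which encode 2 neurotrophins and 3 of their receptors, are 5 of the 14218 genes named by the annotation, and were read by 10 of the 31099 probe sets on the arrays. The 10 were every probe set whose gene symbol in the platform annotation was one of the 5, and each was kept separate: Bdnf had 2, Ntrk2 had 5, and Ntf3, Ntrk3 and Ngfr had 1 each. Of these, 9 passed the filter on dim probe sets and were tested among 19567 in all. The fifth Ntrk2 probe set, 1370652_at, did not pass. The series profiled rat hippocampal neurons in dissociated culture on 18 Affymetrix arrays, in 6 groups of 3 biological replicates. All cultures received lentivirus on day in vitro 3. One arm of 9 cultures received control shRNAs and the other received shRNAs against the transcription factors MEF2A and MEF2D (called RNAi from here on). On day 10 all cultures were held for 1 h in AP5, an NMDA receptor blocker, and TTX, a sodium channel blocker, and then in 55 mM KCl, which depolarizes neurons, for 0, 1 or 6 h. The 3 times in each arm give the 6 groups. Every culture therefore carried a lentivirus and the blockers, and the virus was not restricted to one cell type by any label.

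Neurotrophins are secreted proteins that support survival, growth and synaptic change in neurons. BDNF acts mainly through the tyrosine kinase receptor TrkB, the product of Ntrk2, and neurotrophin-3, the product of Ntf3, acts mainly through TrkC, the product of Ntrk3. All neurotrophins also bind the p75 receptor, the product of Ngfr. Bdnf is a classic activity-induced gene: it is transcribed from several alternative promoters whose first exons join a common coding exon, and its messages end at a nearer or a farther polyadenylation site. Ntrk2 and Ntrk3 give full-length receptors and truncated ones without the kinase, and truncated TrkB is abundant in astrocytes. A probe set reads one stretch of message, so probe sets of one gene can read different transcripts.

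RefSeq start windows on the GRCr8 build were held for 2 of the 5 genes, 6 windows for Bdnf and 3 for Ntf3. The 250 bases before each start were searched on both strands. Below are the pair of Bdnf windows that held a match, shown because Bdnf was the member most induced by KCl. The first Ntf3 window is also shown, Ntf3 being not called for KCl in the control arm. The remaining Bdnf windows, like all Ntf3 windows, held no match. Capitals mark matches, and lower case is the rest.
Bdnf window 4, chr3:116637608-116637857, plus strand: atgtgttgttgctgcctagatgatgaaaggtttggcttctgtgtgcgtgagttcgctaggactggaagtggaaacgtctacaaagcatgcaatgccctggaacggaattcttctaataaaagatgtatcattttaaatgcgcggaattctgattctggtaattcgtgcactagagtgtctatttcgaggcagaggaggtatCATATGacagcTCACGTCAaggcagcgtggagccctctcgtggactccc
Bdnf window 3, chr3:116621721-116621970, plus strand: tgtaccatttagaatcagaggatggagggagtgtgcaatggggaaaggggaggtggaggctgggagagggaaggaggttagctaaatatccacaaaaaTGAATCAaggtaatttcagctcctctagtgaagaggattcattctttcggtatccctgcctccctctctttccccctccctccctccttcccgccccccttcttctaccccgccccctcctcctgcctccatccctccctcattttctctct
Ntf3 window 1, chr4:160668908-160669157, minus strand: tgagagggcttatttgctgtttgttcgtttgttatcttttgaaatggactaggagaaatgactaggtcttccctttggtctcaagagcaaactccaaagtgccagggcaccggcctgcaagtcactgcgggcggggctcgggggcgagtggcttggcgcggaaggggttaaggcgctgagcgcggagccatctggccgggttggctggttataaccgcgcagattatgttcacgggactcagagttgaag
In Bdnf window 4 the capitals are CATATG, an E-box, at -49 from the start, and TCACGTCA, a variant of the cyclic AMP response element, at -38. The second of these overlaps CGTCA, the half-site of that element, at -35. In Bdnf window 3 the capitals are TGAATCA, a match to the AP-1 site TGANTCA, at -152. Of 33465 rat windows of the same length, 0.35% held TCACGTCA, 3.62% held CATATG, 18.2% held CGTCA and 6.34% held TGANTCA. No window of Bdnf or Ntf3 matched the MEF2 consensus, which 2.96% of all windows held, the CArG box (1.5%), CACGTG (5.59%) or TGACGTCA (1.59%). These are matches of letters and do not show that a factor binds. The shares are per window, while Bdnf had 6 windows searched. Any part of a match in the KCl response was not tested.

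The knockdown was visible on the arrays. Mef2a, one of the targeted genes, averaged 1846.3, 2167.7 and 1756.5 at 0, 1 and 6 h with control shRNAs against 603.7, 573.1 and 485.1 with RNAi. Its signal under RNAi was 32.8%, 26.5% and 27.6% of control (limma adjusted p = 2.77e-07, 4.28e-08 and 6.67e-08, n = 3 per group). Mef2d, the other target, stood at 69.5%, 74.7% and 67.5% of control (adjusted p = 0.000331, 0.00166 and 0.000188). The early activity genes Fos and Arc rose 19.7-fold and 8.09-fold after 1 h of KCl in the control arm (adjusted p = 1.17e-06 and 2.62e-10). All 12 neuronal markers checked lay above the 40th percentile of every array, but so did 9 of 10 astrocyte markers, with Gfap at a mean of 10714.6 and Slc1a3 at 11123.4, so the labelled neuron cultures also held astrocyte messages. Messages of other cells were present too: 5 of 9 markers of the oligodendrocyte lineage, 2 of 9 of microglia and macrophages and 3 of 9 of endothelial cells, pericytes and fibroblasts lay above the 40th percentile of every array. Their means ran from 59.8 (Mog) to 8124.2 (Olig1), from 56 (Ptprc) to 437.6 (Aif1) and from 46.8 (Pecam1) to 1721.7 (Dcn), so Mog, Ptprc and Pecam1 averaged below the floor of 72.6 while other markers of the same lists did not. Array medians lay between 240 and 248, and replicates correlated at 0.986 to 0.996 within groups.

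Bdnf, the ligand of TrkB, rose with KCl on both of its probe sets, and in MEF2 RNAi cultures reached 61.7% and 61.6% of the control signal at 6 h. On 1368677_at the control arrays (replicates 1, 2 and 3 in that order here and below) read 316.4, 285.5 and 265.0 before KCl, 547.8, 595.7 and 615.1 at 1 h and 3086.1, 2856.0 and 3336.5 at 6 h. The 3 times did not overlap. Under RNAi the same probe set read 286.4, 288.8 and 346.6 at 0 h, 390.5, 625.8 and 695.2 at 1 h, and 1726.1, 1805.7 and 2219.3 at 6 h. Again each time lay wholly above the one before, and all 3 RNAi arrays at 6 h were below all 3 control arrays. Of all probe sets tested, 5.46% had the 1 h control arrays wholly above those at 0 h. For 6 h above 0 h and above 1 h the control shares were 21.4% and 19.5%. Under RNAi the 3 shares were 5.54%, 20.4% and 20.9%. RNAi arrays lay wholly below control arrays at 6 h for 15.8%.

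In the control arm Bdnf 1368677_at was 2.03-fold higher at 1 h than at 0 h (log2 difference 1.02, SE 0.16, limma adjusted p = 0.00205) and 10.7-fold higher at 6 h (3.42, SE 0.16, adjusted p = 1.49e-09). It was 1 of 9 member probe sets called higher at 1 h, where 1.22% of all probe sets tested were called higher, and 1 of 5 called higher at 6 h, where 15.9% were. No member was called lower at 1 h or 6 h of KCl in either arm, against 1.02% and 21.7% of all probe sets with control shRNAs and 2.04% and 21.8% under RNAi. In the RNAi arm the same Bdnf probe set was 1.81-fold higher at 1 h (0.86, SE 0.16, adjusted p = 0.00741) and 6.23-fold higher at 6 h (2.64, SE 0.16, adjusted p = 1.95e-08). It was the single member called higher at 1 h in that arm (1.14% of all probe sets) and 1 of 4 at 6 h (14.7%). The 1 h call in the RNAi arm was lost without RNAi 1 h replicate 2 (adjusted p = 0.0539) or replicate 3 (0.0519), and when only the 2 groups compared were fitted (0.103). Its adjusted p ran from 5.14e-05 to 0.103 over the alternatives. From 1 to 6 h the probe set rose by 2.40 in the control arm (adjusted p = 8.37e-08) and by 1.78 under RNAi (1.55e-06).

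The second Bdnf probe set, 1368678_at, moved later and less. Control arrays read 393.8, 347.6 and 383.8 at 0 h, 388.2, 455.7 and 474.3 at 1 h, and 854.3, 819.7 and 945.7 at 6 h. RNAi arrays read 359.6, 325.1 and 363.9, then 384.1, 451.5 and 470.8, then 528.5, 483.4 and 607.0. The 1 h and 0 h arrays overlapped in the control arm, and the 6 h arrays lay above both earlier times in both arms. Against a single earlier time, 19.5% to 21.4% of all probe sets did so. The control difference was 0.23 at 1 h (SE 0.10, adjusted p = 0.437) and 1.22 at 6 h (SE 0.10, adjusted p = 2.33e-07, 2.33-fold). Under RNAi it was 0.31 at 1 h (adjusted p = 0.132, or 0.0334 with the replicate number as a block, range 0.0334 to 0.398) and 0.62 at 6 h (SE 0.10, adjusted p = 0.000186, 1.54-fold). From 1 to 6 h it rose by 0.99 in the control arm (adjusted p = 2.9e-06) and by 0.31 under RNAi (0.0355). The last call was lost without RNAi 1 h replicate 1 (0.167) or 2 (0.0546), RNAi 6 h replicate 1 (0.064) or 3 (0.174), with no filter (0.0683) and with only the groups compared (0.0854), over a range of 0.00821 to 0.174.

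**Figure D1:**
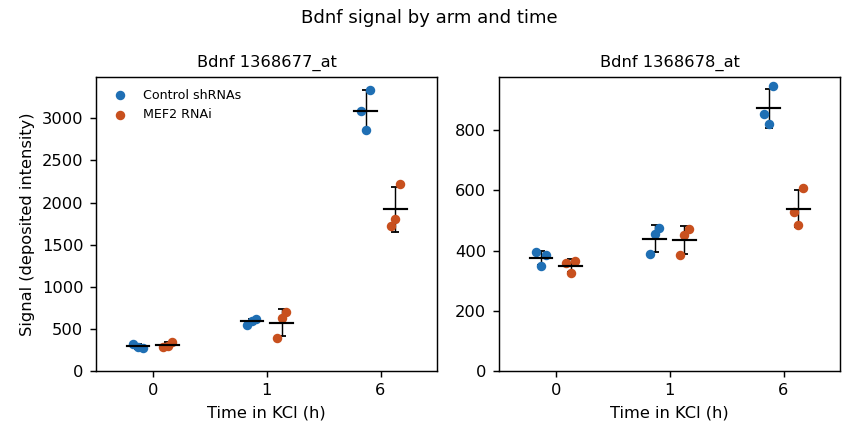
Signal of the 2 Bdnf probe sets (vertical axis, deposited linear intensity) against hours in KCl (horizontal axis). Points are single arrays in the control (blue) and RNAi (orange) arms, bars the mean and whiskers the SD of 3 arrays. At 6 h the RNAi arrays, up to 2219.3 and 607.0, lie below every control array on both probe sets.

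Between the arms, Bdnf was called different at 6 h and was not at 0 or 1 h. RNAi minus control on 1368677_at was 0.09 at 0 h (95% interval -0.26 to 0.44, adjusted p = 0.793), -0.08 at 1 h (-0.43 to 0.27, adjusted p = 0.822) and -0.70 at 6 h (-1.05 to -0.35, adjusted p = 0.00938). On 1368678_at it was -0.10 (-0.32 to 0.12), -0.01 (-0.23 to 0.21) and -0.70 (-0.92 to -0.48, adjusted p = 0.00033). Both 6 h calls held under every alternative that tested them, at adjusted p of 0.000571 to 0.0477 and 3.29e-05 to 0.00918. Leaving out Ngfr, which passed the filter through the control arm alone, 3 of 8 members were called lower with RNAi at 6 h and 1 higher, where 8.02% and 6.97% of all probe sets were.

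Whether RNAi changed the KCl response itself is the interaction, which uses the same arrays as the comparisons above. At 6 h the gain on 1368677_at was smaller under RNAi by -0.78 on the log2 scale (SE 0.23, interval -1.28 to -0.29, unadjusted p = 0.00412), and on 1368678_at by -0.60 (SE 0.15, -0.91 to -0.29, unadjusted p = 0.000898). Neither passed after adjustment over all probe sets (limma adjusted p = 0.273 and 0.168). With the replicate number as a block, 1368678_at passed (adjusted p = 0.0277) and 1368677_at did not (0.0895). Over the alternatives the adjusted p ran from 0.0277 to 0.411 and from 0.0633 to 0.551. Without the block 0 of 9 members and 28 of 19567 probe sets (0.143%) were called for this term, and 1588 probe sets had an unadjusted p under 0.05. With the block 1 member and 173 probe sets were called. At 1 h 0 of 9 members and 0 probe sets (0%) were called by limma, and 691 had an unadjusted p under 0.05.

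The pair of Bdnf probe sets differed in how much they moved. Their log2 ratio within each array, 1368677_at over 1368678_at, averaged -0.38 ± 0.14 (SD, n = 3) at 0 h, 0.42 ± 0.07 at 1 h and 1.82 ± 0.03 at 6 h with control shRNAs. Under RNAi it averaged -0.19 ± 0.13, 0.35 ± 0.29 and 1.83 ± 0.10. The ratio rose by 0.67 from 0 to 1 h and by 2.11 from 0 to 6 h over both arms (two-sided exact permutation within arms, p = 0.005 for each, the smallest this design allows, and 0.03 after adjustment over 12 such tests). RNAi minus control over the 3 times was 0.04 (exact permutation p = 0.588, adjusted 0.706). These 12 tests on 4 pairs of probe sets were chosen after the values were seen. They did not use the replicate number as a block. Across the 18 arrays the genes whose brightest probe set followed 1368677_at most closely, among 892 candidates, were Sgk1 (r = 0.985), a kinase, Dyrk1a (0.983), also a kinase, Pafah1b1 (0.982), a dynein regulator, Zdbf2 (0.98) and Cep43 (0.975). Here and below, candidates were genes whose group means spanned at least 1 on the log2 scale, and genes that varied less were not searched. All these correlations share the arrays and the 6 groups and are descriptions only.

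Ntf3, the gene of neurotrophin-3, was lower with MEF2 RNAi at every time and was not called for KCl in the control arm. Control arrays read 311.4, 322.5 and 389.8 at 0 h, 342.0, 329.3 and 335.9 at 1 h, and 257.6, 315.6 and 413.3 at 6 h. RNAi arrays read 151.5, 159.3 and 183.7, then 150.5, 110.1 and 161.0, then 191.7, 222.6 and 220.6. Ntf3 averaged 253.8 and exceeded its array's 40th percentile on 15 of 18 arrays. RNAi 0 h replicate 1 and RNAi 1 h replicates 1 and 2 fell below it. At each time the 3 RNAi arrays lay below the 3 control arrays, as did 12.6%, 16.5% and 15.8% of all probe sets at 0, 1 and 6 h. Ntf3 stood at 48.4% of control at 0 h (log2 difference -1.05, SE 0.16, limma adjusted p = 0.000367), 41.3% at 1 h (-1.27, adjusted p = 6.03e-05) and 65.4% at 6 h (-0.61, adjusted p = 0.0158). Leaving out Ngfr again, it was the 1 of 8 members called lower at 0 h, where 6.02% of all probe sets were, and the 1 of 8 at 1 h, where 8.73% were. The 6 h call was lost without RNAi 6 h replicate 1 (adjusted p = 0.0724) or control 6 h replicate 3 (0.0828), and with only the groups compared (0.0607), over a range of 0.00202 to 0.0828.

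Within the control arm the Ntf3 difference was -0.02 at 1 h (95% interval -0.35 to 0.32) and -0.07 at 6 h (-0.41 to 0.26). In the RNAi arm it was 0.61 higher at 6 h than at 1 h (adjusted p = 0.00883), a call lost without RNAi 1 h replicate 2 (0.44, adjusted p = 0.0549, range 0.00116 to 0.0549). Against 0 h it was 0.36 higher (adjusted p = 0.0866), and was called with the replicate block (0.0252), median centring (0.0336), only the groups compared (0.0285) or without control 6 h replicate 3 (0.0466, range 0.0252 to 0.201). The genes most like Ntf3 over the arrays were Prmt8 (r = 0.935), a brain arginine methyltransferase, Lsm11 (0.931), Imp3 (0.919), Acta1 (0.914), skeletal muscle actin, and Cpne7 (0.912).

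Ngfr, the gene of the p75 receptor, was dim, and passed the filter only through control arrays: it exceeded its array's 40th percentile on 5 arrays, all of the control arm. That filter favours a probe set that is higher in the control arm, so its calls are given as values and are not support for the others. Control arrays read 142.4, 189.5 and 157.2 at 0 h, 167.0, 174.3 and 155.5 at 1 h, and 147.8, 172.7 and 167.5 at 6 h. RNAi arrays read 109.6, 101.9 and 91.8, then 95.5, 113.4 and 100.2, then 128.1, 121.6 and 124.4. The arms did not overlap at any time. RNAi signal was 62.3%, 62.1% and 76.8% of control at 0, 1 and 6 h (limma adjusted p = 0.000329, 0.000264 and 0.0189). The 6 h call was lost without control or RNAi 6 h replicate 2 (0.0802 and 0.0553) or replicate 3 (0.0665 and 0.052), over a range of 0.00572 to 0.0802.

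With control shRNAs Ngfr was not called for KCl, and its difference at 6 h was 0.00 (95% interval -0.21 to 0.22). Under RNAi, Ngfr was 0.31 higher at 6 h than at 0 h (adjusted p = 0.0265), and this call was lost without RNAi 0 h replicate 2 or 3 or RNAi 6 h replicate 1 or 3 (0.0563, 0.119, 0.0748 and 0.0605, range 0.00898 to 0.119). Against 1 h it was 0.28 higher (adjusted p = 0.0527, or 0.0227 with the replicate block), a value near the threshold that was called in 10 of 27 alternatives (range 0.0227 to 0.18). These include leaving out control 0 h replicate 1 (0.035) or 2 (0.0268), control 6 h replicate 1 (0.0485), RNAi 0 h replicate 1 (0.0495) or 3 (0.0481) or RNAi 1 h replicate 2 (0.0333). The genes most like it were Prmt8 (r = 0.913), Mylk (0.912), a myosin kinase, Ncald (0.896), Rasd2 (0.895) and Mios (0.894). Over the 18 arrays Ngfr and Ntf3 correlated at r = 0.87, and at -0.18 once each group's mean was removed, so the likeness lay between groups.

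Ntrk3, the gene of the neurotrophin-3 receptor TrkC, was the member called higher with MEF2 RNAi. Control arrays read 254.9, 575.2 and 572.4 at 0 h, 521.7, 473.0 and 537.4 at 1 h, and 700.2, 780.0 and 798.3 at 6 h. RNAi arrays read 1057.0, 1393.1 and 1379.0, then 935.9, 1406.8 and 1293.1, then 1081.7, 1506.3 and 1374.7. Every RNAi array lay above every control array, and 15.2%, 14.9% and 16.2% of all probe sets had the RNAi arrays above the control arrays of the same time. Control 0 h replicate 1 stood well below the other control arrays.

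RNAi Ntrk3 was 2.89-fold control at 0 h (log2 difference 1.53, SE 0.25, limma adjusted p = 0.000636), 2.34-fold at 1 h (1.23, adjusted p = 0.00303) and 1.73-fold at 6 h (0.79, adjusted p = 0.0418). It was the single member called higher at each time, where 7.31%, 6.37% and 6.97% of all probe sets were. Without control 0 h replicate 1 the 0 h difference was 1.14 (adjusted p = 5e-04, range 1.87e-05 to 0.026). The 6 h call was lost in 10 of 28 alternatives (adjusted p 0.00249 to 0.128): with no filter (0.107), without any one control 6 h array (0.109, 0.0909 and 0.0828), without RNAi 6 h replicate 2 (0.128) or 3 (0.11), and, by a narrow margin, without control 1 h replicate 2 or 3, RNAi 0 h replicate 2 or RNAi 1 h replicate 3 (0.0503, 0.0514, 0.051 and 0.0516).

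KCl raised Ntrk3 in the control arm by 0.79 at 6 h (SE 0.25, adjusted p = 0.0181), but by 0.40 without control 0 h replicate 1 (adjusted p = 0.0776). The call was also lost without control 6 h replicate 2 (0.0502) or 3 (0.0547), with no filter (0.0517) and with only the groups compared (0.0844), over a range of 0.00139 to 0.0844. From 1 to 6 h the control difference had an adjusted p of 0.0926, and of 0.0145 with the replicate block, 0.00282 with only the groups compared or 0.0083 without control 0 h replicate 1 (range 0.00282 to 0.197). In the RNAi arm the 6 h difference was 0.05 (95% interval -0.48 to 0.57), and the interaction at 6 h was -0.75 (-1.49 to 0.00, adjusted p = 0.612). Gabrb1 (r = 0.938), a GABA-A receptor subunit, Snhg4 (0.915), Zdhhc7 (0.906), Snn (0.905) and Eeig2 (0.899) were the genes most like Ntrk3.

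**Figure D2:**
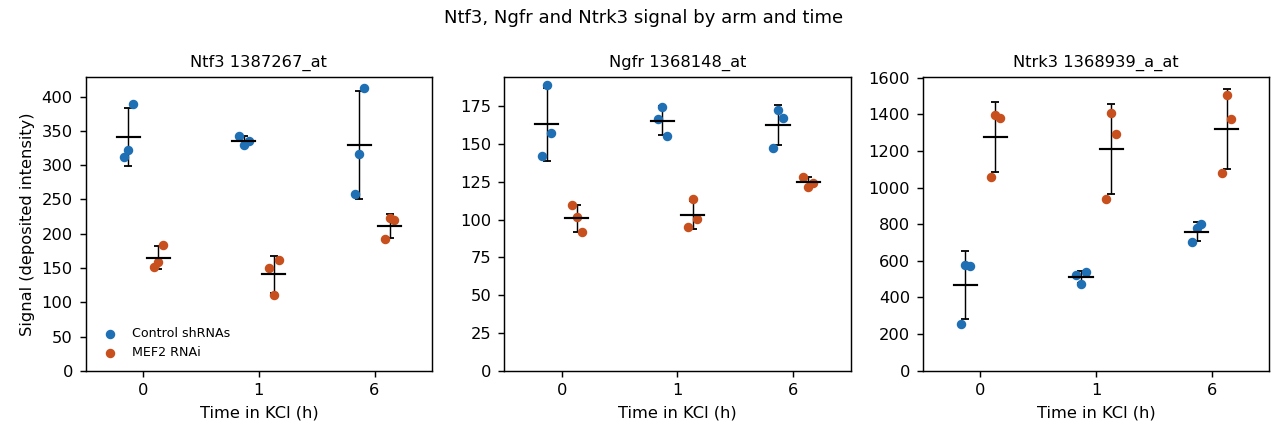
Signal of Ntf3, Ngfr and Ntrk3 (vertical axes, deposited linear intensity, one scale per panel) against hours in KCl. Points are single arrays in the control (blue) and RNAi (orange) arms, bars the mean and whiskers the SD of 3 arrays. The arms do not overlap at any time on these 3 probe sets, with RNAi lower for Ntf3 and Ngfr and higher for Ntrk3, and control 0 h replicate 1 is the low Ntrk3 point at 254.9.

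Ntrk2, the gene of TrkB, gave different answers on its probe sets: 2 rose with KCl at 6 h in the control arm, 2 were not called for KCl, and the fifth, 1370652_at, lay between 53.6 and 68.8, under the floor on all 18 arrays. The strongest KCl change was on 1368972_at. Its control arrays read 897.6, 1504.9 and 1620.9 at 0 h, 1344.0, 1134.1 and 1688.7 at 1 h, and 2185.6, 2250.0 and 2828.4 at 6 h. RNAi arrays read 1464.9, 1534.7 and 1662.0, then 1144.9, 1368.0 and 1446.6, then 1931.6, 2425.6 and 2571.1. In both arms the 6 h arrays lay above all arrays of the earlier times. Of all probe sets, 21.4% with control shRNAs and 20.4% under RNAi had the 6 h arrays above those at 0 h. Against 1 h the shares were 19.5% and 20.9%.

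The 6 h difference on 1368972_at was 0.89 in the control arm (SE 0.20, limma adjusted p = 0.00191, 1.85-fold) and 0.62 without control 0 h replicate 1 (adjusted p = 0.00772, range 5.3e-05 to 0.0215). The RNAi difference was 0.56 (adjusted p = 0.0342, 1.48-fold). This call was lost without RNAi 0 h replicate 1, 2 or 3 (0.0848, 0.0798 and 0.0513), without RNAi 6 h replicate 2 or 3 (0.0947 and 0.119) and with no filter (0.0804), over a range of 0.00258 to 0.119. From 1 to 6 h the differences were 0.81 (adjusted p = 0.00465) and 0.80 (adjusted p = 0.00582). Across the arrays 1368972_at and Ntrk3 deviated together within groups (r = 0.86, 18 arrays), and control 0 h replicate 1 was low on both.

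A smaller KCl change was seen on 1370687_a_at. Control arrays read 1756.3, 1689.7 and 2108.8 at 0 h, 2167.5, 1510.6 and 2133.0 at 1 h, and 2661.9, 2254.6 and 2432.2 at 6 h, and RNAi arrays read 2112.5, 2089.9 and 2243.4, then 2055.2, 2047.9 and 2271.5, then 2706.6, 2380.0 and 2919.7. The 6 h arrays of each arm lay above that arm's 0 h and 1 h arrays, as 19.5% to 21.4% of all probe sets did against a single earlier time. In the control arm it was 1.33-fold higher at 6 h than at 0 h (0.41, SE 0.13, adjusted p = 0.0172), a call lost without control 0 h replicate 1 (0.0551) or 2 (0.0765) or control 6 h replicate 1 (0.073), over a range of 0.00156 to 0.0765. For RNAi the difference was 0.31 (adjusted p = 0.0669, or 0.0107 with the replicate block, range 0.0107 to 0.218), and 0.33 from 1 to 6 h (adjusted p = 0.0677, or 0.00974 with the block, range 0.00974 to 0.226). Both were also called without control 1 h replicate 2 (0.0183 and 0.0181) or RNAi 6 h replicate 2 (0.0432 and 0.0463), with median centring (0.0164 and 0.037) and with only the groups compared (0.0368 and 0.0373). From 1 to 6 h in the control arm the difference was 0.35 (adjusted p = 0.0411). That call was lost without control 6 h replicate 1 (0.143) or 3 (0.0856), control 1 h replicate 2 (0.18, adjusted p = 0.217), RNAi 0 h replicate 2 (0.0506) or RNAi 1 h replicate 2 (0.0505), with no filter (0.0851) and with only the groups compared (0.122), over a range of 0.00502 to 0.217.

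The other two Ntrk2 probe sets that were tested, 1383135_at and 1397246_at, were not called for KCl. On 1383135_at the control arrays read 5372.4, 3658.9 and 4873.8 at 0 h, 4958.1, 4045.8 and 4396.7 at 1 h, and 5182.3, 4188.8 and 4715.9 at 6 h. RNAi arrays read 5898.7, 4947.9 and 5520.0, then 6285.0, 5056.1 and 5115.2, then 6486.9, 5413.7 and 5425.4. The arms overlapped at 0 h and did not at 1 and 6 h. The 6 h KCl difference was 0.03 in the control arm (95% interval -0.26 to 0.32) and 0.08 in the RNAi arm (-0.21 to 0.37). On 1397246_at it was 0.15 (-0.17 to 0.48) and 0.14 (-0.19 to 0.46).

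RNAi minus control on these same probe sets depended on the pairing of cultures. On 1383135_at it was 0.25, 0.29 and 0.30 at 0, 1 and 6 h, not called without a block (limma adjusted p = 0.273, 0.181 and 0.173) and called with the replicate number as a block (0.0179, 0.0065 and 0.00594, highest over all alternatives 0.766, 0.51 and 0.477). On 1397246_at it was 0.35, 0.33 and 0.33 (adjusted p = 0.155, 0.173 and 0.173, with the block 0.00589, 0.00758 and 0.00766, highest 0.45, 0.522 and 0.49). Each same-numbered pair of cultures read higher under RNAi on both. With the block, 5 of 9 members, Ngfr included, were called at 0 h and 5 at 1 h in place of 3 and 3. Without the block 13.3% and 15.1% of all probe sets tested were called either way at these times. The block raised the calls over all probe sets too, by the counts given in the closing section. At 6 h the block likewise added both of these Ntrk2 probe sets to the members called. RNAi minus control was not called on 1370687_a_at (0.22, 0.15 and 0.12) or 1368972_at (0.26, -0.06 and -0.07), with or without the block.

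**Figure D3:**
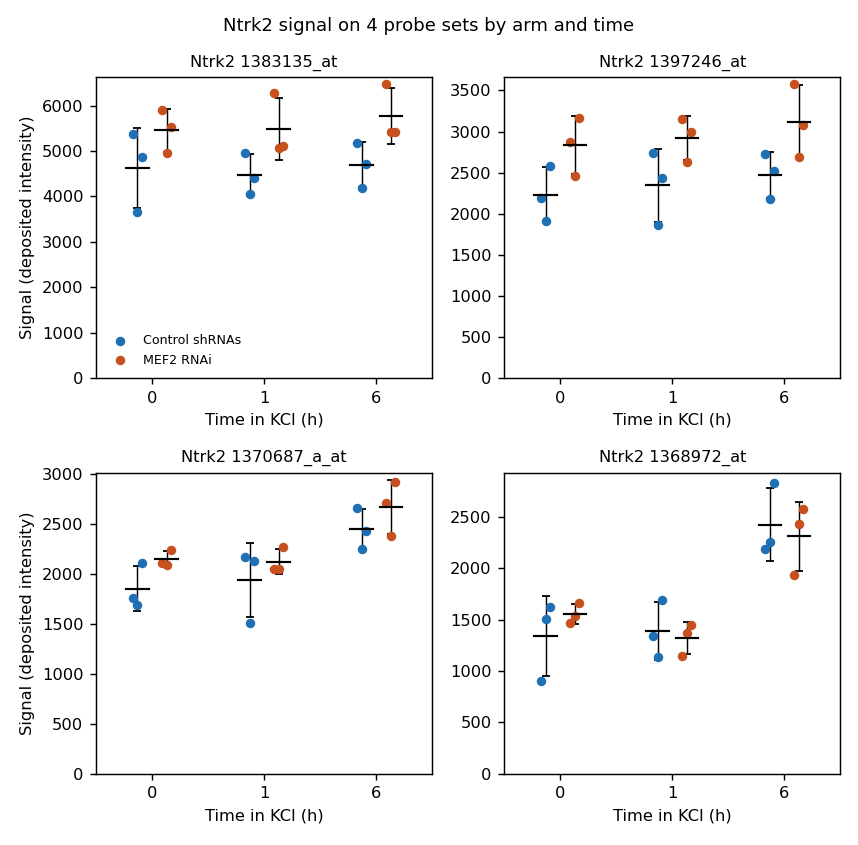
Signal of the 4 tested Ntrk2 probe sets (vertical axes, deposited linear intensity) against hours in KCl. Points are single arrays in the control (blue) and RNAi (orange) arms, bars the mean and whiskers the SD of 3 arrays. The 6 h arrays are highest within each arm on 1370687_a_at and 1368972_at and overlap the earlier times on 1383135_at and 1397246_at.

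Within arrays, the log2 ratio of 1370687_a_at to 1383135_at rose by 0.30 from 0 to 6 h over both arms (two-sided exact permutation p = 0.01, adjusted 0.04 over the 12 tests). That of 1368972_at to 1383135_at rose by 0.67 (exact permutation p = 0.02, adjusted 0.06), and that of 1397246_at to 1383135_at by 0.09 (exact permutation p = 0.345, adjusted 0.556). The genes most like 1383135_at were Ttr (r = 0.881), transthyretin, Gcsh (0.837), Pals1 (0.824), Cryab (0.777), a small heat shock protein, and Srek1ip1 (0.776). These came from 893 candidates whose group means spanned at least 1 on the log2 scale. Group means of 1383135_at itself ran only from 12.12 to 12.49, so genes that varied as little were not searched.

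Marker lists of the cell types were set beside the arms, and their part in the member results was not tested. In such bulk RNA, fewer cells of a type and less RNA per cell cannot be told apart. The summed signal of 10 astrocyte markers averaged 51743, 50862 and 50866 at 0, 1 and 6 h with control shRNAs (43696 to 58344 on single arrays) against 60089, 58225 and 57918 under RNAi (52582 to 63779), so that the arms overlapped. By limma 0, 0 and 1 of the 10 were called higher, and 3, 5 and 3 had an unadjusted p under 0.05. The median log2 difference of the 10 was 0.14, 0.22 and 0.2 at 0, 1 and 6 h. Overlap of the sums, here and below, was read without pairing by replicate number. That of 12 neuronal markers averaged 67513, 69055 and 67849 in the control arm (64316 to 71113) and 63322, 64209 and 61470 under RNAi (57777 to 68498). These neuronal sums overlapped between the arms at 0 and 1 h and did not at 6 h (66395 to 69202 against 57777 to 64620). By limma 2, 1 and 2 of the 12 were called lower, and 5, 6 and 6 had an unadjusted p under 0.05. Among all 19567 probe sets tested 5164, 5271 and 5285 had an unadjusted p under 0.05 at these times. The sum of 3 inhibitory neuron markers averaged 1971, 1883 and 3065 in the control arm and 1810, 1672 and 2519 under RNAi, and overlapped between the arms at each time. By limma 0, 0 and 1 of the 2 tested were called lower with RNAi. At 6 h of KCl against 0 h, 1 of the 2 was called higher in each arm. Sums of 9 oligodendrocyte lineage markers (10214 to 17028 against 10749 to 19253) and of 9 microglia and macrophage markers (1570 to 1872 against 1582 to 1849) overlapped between the arms. By limma 0 of the 6 tested in each list were called at any time, and 0 had an unadjusted p under 0.05. The sum of 9 endothelial, pericyte and fibroblast markers did not overlap between the arms at any time: it averaged 3945, 3879 and 4049 in the control arm (3496 to 4393) and 2581, 2383 and 3215 under RNAi (2215 to 3442), and 2 of the 8 tested were called lower at each time. Over all genes at their brightest probe set, 8.17%, 7.55% and 8.05% were called higher and 5.87%, 8.63% and 8.09% lower. Most of that sum came from collagen and matrix genes, with Dcn at a mean of 1721.7 and Col1a1 at 485.8.

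**Figure D4:**
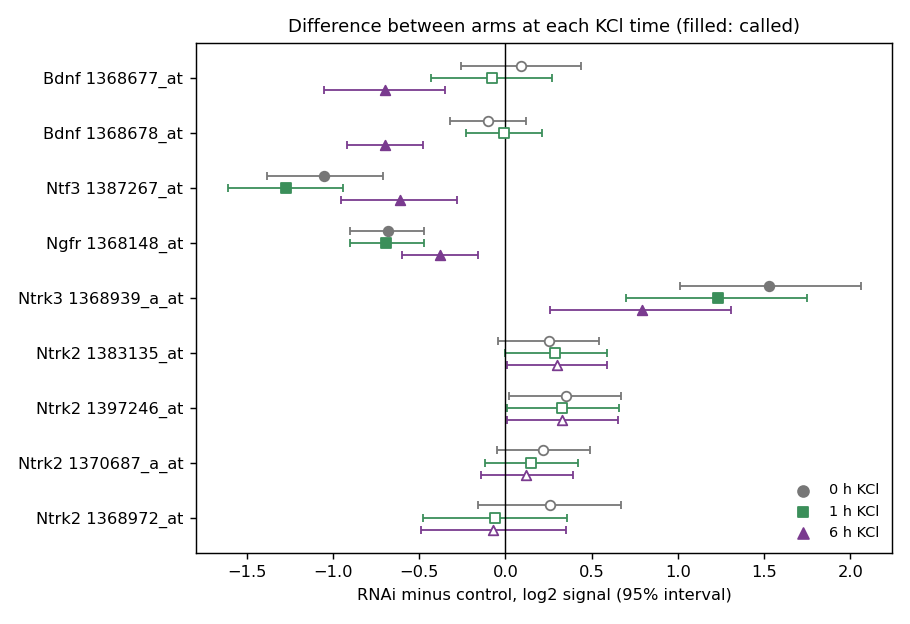
RNAi minus control on the log2 scale (horizontal axis) for the 9 tested probe sets at 0 h (circles), 1 h (squares) and 6 h (triangles) of KCl, with 95% intervals. Filled symbols are called without a block: both Bdnf probe sets at 6 h alone (-0.70 each), Ntf3 and Ngfr below 0 and Ntrk3 above 0 at all times.

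Other genes of the neurotrophin pathway were read at 1 brightest probe set per gene, of which 15.6% were called higher and 24.8% lower at 6 h of KCl in the control arm. Of 5 further ligands and receptors tested, 0 were called for KCl by limma in either arm, and 1 had an unadjusted p under 0.05 in 1 comparison, RNAi 6 h against 1 h. With RNAi, 2 were called higher and 1 lower at each time. Of all genes, 8.17%, 7.55% and 8.05% were called higher with RNAi at 0, 1 and 6 h, and 5.87%, 8.63% and 8.09% lower. These shares also stand against the RNAi counts of the lists below. Sort1, the gene of the proneurotrophin co-receptor sortilin, was higher by 0.46, 0.57 and 0.57 at 0, 1 and 6 h, its relative Sorcs2 by 0.36, 0.46 and 0.40, while Sorcs3 differed by -0.68, -0.80 and -0.49. The median of the 5 at 6 h was 0.21, and that of all genes 0.02.

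Among 11 genes of neurotrophin processing and secretion, 4 were called higher and 1 lower at 6 h of KCl in the control arm. Pcsk5, a proprotein convertase, rose by 1.23 (adjusted p = 6.67e-07), Plat, the tissue plasminogen activator, by 0.72 (0.000345) and Pcsk2, another convertase, by 0.70 (0.00053). Their median was -0.02, as was that of all genes. Under RNAi Pcsk2 differed from control by -0.77, -0.74 and -0.41, and Hap1, a transport adaptor, by 0.46, 0.50 and 0.52, all called. These were the 1 lower and, at 1 and 6 h, the 1 higher of the 11, and Plat was also higher at 0 h (0.55, adjusted p = 0.00901).

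Of 31 Trk adaptors and signal transducers, 5 were called higher and 5 lower at 6 h of KCl in the control arm, with a median of -0.01. Frs3, a Trk docking protein, fell by 1.29 (adjusted p = 5.56e-08), Sos1, a Ras exchange factor, rose by 1.14 (4.48e-07) and Mapk7, the kinase ERK5, fell by 0.56 (1.26e-05). With RNAi 1, 1 and 0 were called higher and 2, 3 and 4 lower at 0, 1 and 6 h, among them Frs2, the other docking protein of the family, at -0.31, -0.37 and -0.35 (adjusted p = 0.0107, 0.00277 and 0.00384). Of all genes, 8.17%, 7.55% and 8.05% were higher and 5.87%, 8.63% and 8.09% lower.

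Of 16 partners and effectors of p75, 1 was called higher and 3 lower at 6 h of KCl in the control arm: Nfkb1, an NF-kappaB subunit, rose by 0.47 (adjusted p = 5.97e-05), and Rtn4r, the Nogo receptor, fell by 0.88 (0.000472). With RNAi 1, 1 and 2 were higher and 1, 2 and 1 lower, and Traf6, a signalling adaptor, was among the lower at each time (-0.32, -0.35 and -0.34). Of 14 genes of Trk turnover and trafficking, 4 were called higher and 1 lower at 6 h, with Rab11a, a recycling GTPase, at 0.53 (8.86e-06), Ehd4 at 0.71 (8.97e-06) and the deubiquitinase gene Usp8 at -0.96 (2.04e-05). With RNAi 1 was higher at each time, Rab11a (0.40, 0.33 and 0.34), and 1, 2 and 2 were lower, with the phosphatase gene Ptprf at -0.42, -0.47 and -0.36. For the RNAi counts of both lists the shares of all genes were 8.17%, 7.55% and 8.05% higher and 5.87%, 8.63% and 8.09% lower.

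Of 20 reported regulators of Bdnf transcription, 3 were called higher and 1 lower after 1 h of KCl in the control arm, against 1.15% and 1.34% of genes. At 6 h 6 were higher and 3 lower, with a median of 0.08. Junb, an AP-1 component, rose by 3.97 at 1 h (adjusted p = 3.71e-12), and Bhlhe40, a repressor of the basic helix-loop-helix class, fell by 1.18 (0.00166). At 6 h Carf, a calcium-responsive factor, differed by -1.16 (7.64e-08), and Crebbp, the coactivator CBP, by 0.99 (2.24e-07). With RNAi 0, 0 and 1 were called higher and 1, 5 and 2 lower, and at 6 h these were Bhlhe40 (0.60, adjusted p = 0.0386), Camk2b (-0.36, 0.000968) and Camk2a (-0.41, 0.0168), the last pair encoding subunits of calcium/calmodulin kinase II. The shares of all genes with RNAi were 8.17%, 7.55% and 8.05% higher and 5.87%, 8.63% and 8.09% lower.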

How the data were processed

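Messenger RNA of 18 cultures was labelled as biotinylated cRNA and hybridized to Affymetrix arrays, per the labels' protocols. The authors deposited 1 linear intensity per probe set and array, and the probe summary and normalization are not given in the sources used here. Array number limits the precision. Probe sets were named from the platform annotation (20832 with 1 symbol, 436 with several, 9831 unlisted), which can be old. No probe set with several symbols held a member symbol.

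Intensities under 72.6, the table's 20th percentile, were raised to it and log2 taken. Probe sets above their array's 40th percentile on at least 3 arrays were tested with limma 3.58.1 (R 4.3.3), 6 group means on all 18 arrays, 12 residual degrees of freedom, empirical Bayes, and Benjamini-Hochberg adjustment over 19567 probe sets. Called means adjusted p under 0.05. On simulated data for RNAi minus control at 6 h, with 200 of 19567 probe sets changed, 93% at log2 size 1 and 100% at size 2 were recovered, with 7 false calls. Sizes under 1 were not simulated, and every member difference between the arms at 6 h was smaller than 1. The data had 2933 probe sets called for this comparison.

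The numbers of the biological replicates paired the samples: all 45 same-numbered pairs of arrays deviated together from their group means (r 0.104 to 0.718, median 0.423, against a median of -0.197 for different numbers). Because each group's mean was removed, positive values for same numbers bring negative ones for different numbers. The negative median is therefore not separate evidence. What a number marks is not stated, and the pairing comes from this check. The block's value stands beside a result where it changes the call. Nothing states how separate the cultures were beyond the word biological, so p-values measure the spread between these samples.

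Genes were named by these rules: every member probe set in full, at most 3 called genes per pathway list and comparison, taken by lowest adjusted p, and the 5 genes per member most correlated over the arrays. Candidates for that correlation were the tested brightest probe sets of genes whose group means spanned at least 1 on the log2 scale. Symbols starting with LOC or RGD were left out. The members and lists were chosen with earlier results of these data known. Alternatives tried were other floors, filters, scalings, the block, fewer arrays, 1 probe set per gene and a trended prior. Promoter windows and motifs came from RefSeq.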

Additional observations from a re-analysis of the deposited data

How the results depend on the processing

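Of 2706 values of member probe sets under alternatives, 2619 kept their side of the threshold, 52 lost the call and 35 gained it. No difference called in the fit described above reversed. For comparisons not called there only the adjusted p was followed, so their direction was not checked. Beyond the calls given above, the replicate block changed no other member call. It moved the probe sets called from 437 to 799 (control 1 h against 0 h), 624 to 1300 (RNAi 1 h against 0 h), 2609, 2956 and 2933 to 4430, 4662 and 4685 (RNAi minus control at 0, 1 and 6 h) and 28 to 173 (interaction at 6 h), and members called from 1 to 2 (RNAi 1 h), 3 to 5 (RNAi minus control at 0 h and at 1 h) and 0 to 1 (interaction at 6 h). The block also added member calls, given above, in RNAi minus control at 6 h, RNAi 6 h against 0 h and 1 h, and control 6 h against 1 h. Fitting only the groups compared gave 156, 320 (members 0), 1457 and 11 for the control 1 h, RNAi 1 h, RNAi minus control 0 h and interaction 6 h comparisons. One probe set per gene, which tests fewer, gave 4546 (members 2) and 3878 (members 1) for control 6 h against 0 and 1 h, 4379 (members 2) and 3423 for RNAi 6 h against 0 and 1 h, 1624, 1869 and 1883 for RNAi minus control, and 13 for the interaction at 6 h. A stricter filter, which drops the dim members, left 1, 1 and 3 members for RNAi minus control at 0, 1 and 6 h. With no filter the interaction at 1 h had 1 call. Leaving out 1 array gave 258 to 440 probe sets for control 1 h, 296 to 700 for RNAi 1 h (members 0 to 1), 1851 to 3117 for RNAi minus control at 6 h (members 2 to 5), 0 to 2 and 3 to 49 for the interactions at 1 and 6 h, and 3 to 5 and 2 to 5 members for 6 h against 0 h in the control and RNAi arms. The share of calls that were higher went from 35.9% to 54.8% (RNAi 1 h), 40.2% to 58.2% (RNAi 6 h against 0 h), 43.6% to 54.1% (control 6 h against 1 h), 17.9% to 32.3% (interaction at 6 h) and 54.8% to 42.2% (RNAi minus control at 0 h) under median centring, and to 47.2% for RNAi 1 h under quantile normalization. Where no cause is named, the cause was not tested. Signals near the floor, as for Ngfr and Ntrk2 1370652_at, limit what can be read, and which transcripts each Bdnf and Ntrk2 probe set reads was not analysed here.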
